A study of Mus musculus with 4 samples.

Results

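Transcripts of glycolysis and of the tricarboxylic acid (TCA) cycle were followed in thymocytes of Chaf1b conditional knockout (KO) mice, over 39 enzyme and transporter genes of the 56239 genes in the deposited count table. The genes were taken by symbol. They comprise 20 genes of glucose uptake, glycolysis and lactate handling, 7 genes of pyruvate entry into mitochondria, and 12 genes of the TCA cycle. Aldoa is split over a pair of gene IDs in the annotation, so the symbols match 40 rows. The second Aldoa row (ENSMUSG00000114515) held 13 and 23 counts in KO and 28 and 29 counts in WT, and it is left out of every count of genes below.

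Chaf1b encodes a subunit of chromatin assembly factor 1, which loads histones onto DNA during replication, and the study's title sets it in the development of invariant natural killer T cells. KO mice were Cd4-cre;CHAF1bfloxp/floxp, with Cre recombinase driven by Cd4 regulatory sequence, and WT mice were CHAF1bfloxp/floxp without Cre. Both groups were C57BL/6. By these genotypes both carried the floxed alleles, and no library came from mice with Cre alone. The cells were DP (double-positive, CD4+CD8+) thymocytes isolated by sorting, in 2 KO and 2 WT libraries. The labels used here state neither the age of the mice nor how many gave a library. The p-values below therefore measure the spread between libraries, which may in part be technical.

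Glycolysis splits glucose into pyruvate in the cytosol, with ATP spent in its upper steps and recovered in its lower steps. Pyruvate is either reduced to lactate, which leaves the cell through monocarboxylate transporters, or enters mitochondria, where the pyruvate dehydrogenase complex converts it to acetyl-CoA under the brake of pyruvate dehydrogenase kinases. The TCA cycle oxidises acetyl-CoA and passes its electrons to the respiratory chain. Thymocytes are known for high glucose uptake while they proliferate, before the DP stage, and most DP cells are small and resting.

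Library totals were 24688653 and 21068760 counts for KO replicates 1 and 2, and 23215539 and 27369874 for WT replicates 1 and 2. Replicate 1 of each genotype was female and replicate 2 male: the Y-linked gene Ddx3y had 14 counts in KO replicate 1 and 3311 in KO replicate 2, against 2 in WT replicate 1 and 5384 in WT replicate 2. Chaf1b itself stood at 12.2 and 14.8 CPM (counts scaled to a common library size with TMM factors) in KO and at 27.8 and 31.7 CPM in WT, a log2 fold change of -1.14 that edgeR did not call (adjusted p = 0.267) unless sex was a term (adjusted p = 0.0172). Chaf1b transcript thus remained in KO, at 45.3% of the WT mean over the whole gene. All 12 DP markers, Cd4, Cd8a and Rag1 among them, were present, at 261 to 10229 CPM. Transcripts encoded by mitochondrial DNA took 3.30% and 2.03% of the KO counts and 1.33% and 1.45% of the WT counts. Both KO libraries were thus above both WT libraries, KO replicate 1 by the most. The 12 hepatocyte markers summed to 467 and 9.43 CPM in KO and to 453 and 105 CPM in WT, and 3 of them were at 0 in KO replicate 2 alone. The parts of these differences in the results below were not tested.

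Tpi1, Pgk1 and Aldoa of glycolysis were 1.41- to 1.51-fold higher in KO on average, and Idh3b of the TCA cycle and Pdhb of pyruvate entry were 1.38- and 1.28-fold higher in WT. None of these differences passed the test without a covariate: edgeR's quasi-likelihood test with Benjamini-Hochberg adjustment over 15070 genes called 0 of the 39 members in either direction, and 1 gene in all (0.00664% of genes higher and 0% lower). At an unadjusted p under 0.05, 7 members were higher and 1 lower in KO, against 8.14% of all tested genes higher and 8.69% lower. DESeq2 called 1 member, Pgk1, higher (1.17% of all genes higher, 1.89% lower). With sex as a term, edgeR called 1 member, Tpi1, higher and 0 lower (1.01% of all genes higher, 2.20% lower). That fit called 3.21% of all genes in either direction. It leaves 1 residual degree of freedom, and sex cannot be told apart in it from any day or batch that the replicate numbers share. In bulk RNA, fewer cells of a type and less RNA per cell cannot be told apart either.

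Both KO libraries lay above both WT libraries for 10 of the 20 glycolysis genes, 2 of the 7 pyruvate entry genes and 7 of the 12 TCA cycle genes, against 27.9% of all genes tested. Both KO libraries lay below both WT libraries for 1, 1 and 2 genes of these groups, against 28.4% of all genes. The median log2 fold change was 0.31 for glycolysis, -0.01 for pyruvate entry and 0.15 for the TCA cycle, beside -0.003 over all genes tested. Without KO replicate 1 the glycolysis median was 0.11 and the TCA cycle median 0.07, and without KO replicate 2 the glycolysis median was 0.46. Summed over its 20 genes, glycolysis took 0.351% and 0.320% of the KO counts, and 0.300% and 0.284% of the WT counts, so the groups did not overlap. The exact 95% counting interval was 0.349% to 0.353% in KO replicate 1 and 0.3175% to 0.322% in KO replicate 2. Pyruvate entry took 0.0680% and 0.0800% in KO against 0.0788% in each WT library, with the genotypes overlapping. The TCA cycle took 0.137% and 0.136% in KO against 0.133% and 0.136% in WT, with replicate 2 of each genotype nearly equal. In TMM-scaled CPM its sum was 1488.4 and 1323.7 in KO and 1296.3 and 1310.5 in WT, so both KO libraries were higher.

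**Figure D1:**
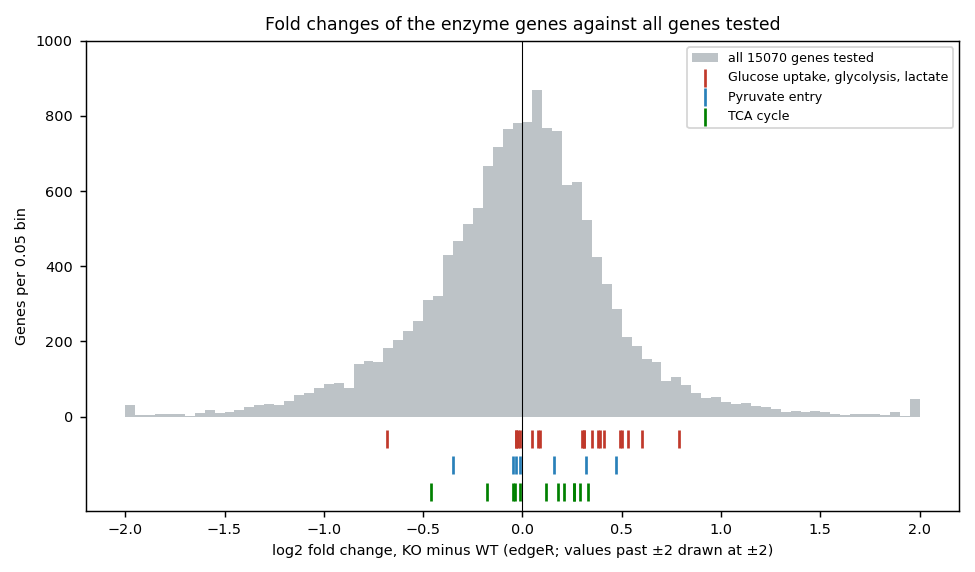
Histogram of edgeR log2 fold changes (KO minus WT, x axis) over all 15070 genes tested, in genes per bin of 0.05 (y axis), with the members of each group as coloured ticks under it. Most glycolysis ticks lie right of 0 around their median of 0.31, with Eno3 alone at -0.68, and no tick lies past 0.79.

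Glucose enters thymocytes through the transporters Slc2a1 (GLUT1) and Slc2a3 (GLUT3), and both were close to their WT levels in KO. Slc2a1 had 27.0 and 23.1 CPM in KO and 23.7 and 27.6 CPM in WT, with the genotypes overlapping. Slc2a3 had 29.0 and 29.9 CPM in KO and 28.1 and 27.6 CPM in WT, both KO libraries slightly higher, with a log2 fold change of 0.08 ± 0.12 (SE) that turned to -0.002 when library totals were used beside the sex term. The next step, phosphorylation of glucose, is carried out by hexokinases. Hk1, the broadly expressed form, had 252 and 152 CPM in KO and 146 and 141 CPM in WT. Its KO replicate 1 was far above the other libraries, and its log2 fold change of 0.49 ± 0.23 dropped to 0.09 without that library. Hk2, the inducible form of muscle and activated lymphocytes, was near the bottom of the range at 5.64 and 2.87 CPM in KO and 2.87 and 2.08 CPM in WT, again with KO replicate 1 on top.

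The middle of the pathway was uneven. Gpi1, which turns glucose phosphate into fructose phosphate, had 400.1 and 281 CPM in KO and 271 and 242 CPM in WT, with both KO libraries higher (log2 fold change 0.41 ± 0.19, and 0.14 without KO replicate 1). The 3 phosphofructokinase genes, which encode the committed step, overlapped between genotypes: Pfkl, the liver-type subunit, had a log2 fold change of -0.01 ± 0.14, the muscle-type Pfkm one of 0.09 ± 0.12 and the platelet-type Pfkp one of -0.03 ± 0.10. Pfkp was the steadiest of the 3 over the libraries, at 169.6 and 175 CPM in KO and 174 and 177 CPM in WT. Aldoa, the aldolase that splits fructose bisphosphate, had 136 and 107 CPM in KO against 92.1 and 80.0 CPM in WT. The KO libraries were both higher, 1.41-fold on average (log2 fold change 0.50 ± 0.15; edgeR adjusted p = 0.267, and 0.0687 with the sex term), and the log2 fold change was 0.32 without KO replicate 1.

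Tpi1, the triose phosphate isomerase that feeds both products of aldolase into the lower pathway, was the member that edgeR called with sex as a term. It had 86.8 and 58.0 CPM in KO and 54.7 and 41.2 CPM in WT. In each genotype replicate 1 was the higher library, and the lower KO library lay only just above the higher WT library. Tpi1 was 1.51-fold higher in KO (log2 fold change 0.60 ± 0.23, edgeR adjusted p = 0.289). With sex as a term it rose in KO (0.58 ± 0.14, edgeR adjusted p = 0.0445), while with library totals in place of the TMM factors in that fit the log2 fold change was 0.50 ± 0.15 and not called (adjusted p = 0.108). Without KO replicate 1 its log2 fold change was 0.28.

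Pgk1, the phosphoglycerate kinase of the first ATP-yielding step, had 252 and 213 CPM in KO and 167 and 156 CPM in WT. The lower KO library stood well above the higher WT library, and the replicates of each genotype were close. Its log2 fold change was 0.53 ± 0.13, or 1.44-fold (edgeR adjusted p = 0.267, and 0.0762 with the sex term), and DESeq2 called it (adjusted p = 0.0353). It was called without KO replicate 1 (0.41, edgeR adjusted p = 0.0353) and without KO replicate 2 (0.64, adjusted p = 1e-04), but not without WT replicate 1 (0.58, adjusted p = 0.861) or without WT replicate 2 (0.48, adjusted p = 0.848), where the fold changes were of like size. Pgk1 lies on the X chromosome (106187100 to 106203699, plus strand), and Tpi1 on chromosome 6 (124810586 to 124814296, minus strand); both positions are those of the deposited table on GRCm38.

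The bases upstream of these genes are shown because DESeq2 called Pgk1 and edgeR with the sex term called Tpi1, with the letters ACGTG and GCGTG in capitals on either strand. These letters are the core that hypoxia-inducible factors bind, and CACGTG is the E-box of Myc-family factors. The sequences are RefSeq promoter windows on GRCm38.p6, written 5′ to 3′ on the gene's strand and ended before the deposited gene model begins. In Tpi1 (chr6:124814297-124814408) neither letter string occurred in the 112 bases, which ran from -250 to -139 from the RefSeq start. In Pgk1 (chrX:106186850-106187099) ACGTG occurred on each strand in 250 bases, with leftmost bases at -150 and -131 from the RefSeq start.
Tpi1: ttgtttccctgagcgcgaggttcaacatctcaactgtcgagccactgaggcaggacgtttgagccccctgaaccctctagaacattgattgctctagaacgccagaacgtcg
Pgk1: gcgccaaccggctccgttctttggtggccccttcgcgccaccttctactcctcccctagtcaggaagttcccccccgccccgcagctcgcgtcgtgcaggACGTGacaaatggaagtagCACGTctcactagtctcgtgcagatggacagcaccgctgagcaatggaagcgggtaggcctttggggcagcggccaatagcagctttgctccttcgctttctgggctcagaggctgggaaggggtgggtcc

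RefSeq gave 54 promoter windows for 37 of the 39 members, all but Slc2a3 and Idh3a. In the 250 bases before the start, ACGTG on either strand occurred in 23 of the 54 windows (42.6%), against 16.6% of 32851 promoters of all genes. GCGTG occurred in 27 windows (50%) against 28.2%, and CACGTG, each match of which also holds ACGTG, in 7 (13.0%) against 6.02%. By group, ACGTG was in 12 of 29 glycolysis windows, 3 of 9 pyruvate entry windows and 8 of 16 TCA cycle windows. Several windows can belong to 1 gene and overlap, and a match is a string of letters, not a bound site. The 32851 promoters were neither limited to genes expressed in these cells nor matched for G and C content. Whether the higher shares are particular to these enzymes was therefore not tested.

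Of the enzymes that follow Tpi1, Gapdh, Pgk1 and Pkm were higher in both KO libraries, and Pgam1 was not. Gapdh, the glyceraldehyde phosphate dehydrogenase, had 109 and 86.4 CPM in KO and 80.4 and 78.3 CPM in WT (log2 fold change 0.30 ± 0.14, and 0.13 without KO replicate 1). Pgam1, the phosphoglycerate mutase, overlapped between genotypes at 41.8 and 38.2 CPM in KO and 42.7 and 34.8 CPM in WT; its log2 fold change was 0.05 with TMM factors and -0.04 with library totals. Pkm, the pyruvate kinase of the last step, had 616 and 492 CPM in KO and 453 and 394 CPM in WT, with both KO libraries higher (0.39 ± 0.17, and 0.22 without KO replicate 1).

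Of the enolase genes, which encode the step that makes phosphoenolpyruvate, Eno1 overlapped between genotypes and Eno3 was lower in both KO libraries. Eno1, the ubiquitous form, had 503 and 356 CPM in KO and 367 and 293 CPM in WT (log2 fold change 0.38 ± 0.21, and 0.12 without KO replicate 1), with KO replicate 2 just under WT replicate 1. Eno3, the muscle form, was low everywhere, at 5.42 and 9.89 CPM in KO and 13.0 and 11.5 CPM in WT (-0.68 ± 0.30; edgeR adjusted p = 0.314, and 0.139 with the sex term). Most of that difference came from KO replicate 1, and without it the log2 fold change was -0.30. The 6 skeletal muscle markers summed to 33.1 and 38.2 CPM in KO and to 48.5 and 44.2 CPM in WT, nearly all of it Mylpf, a myosin light chain gene, at 28.5 and 32.8 CPM in KO and 41.4 and 38.7 CPM in WT. Of the other muscle markers, Ckm had 0 to 2 counts, Myh4 0 to 2 counts and Acta1 6 to 11 counts in each library. Tnnt3 and Atp2a1 overlapped between genotypes. Atp2a1 had 19 and 4 counts in KO and 41 and 19 counts in WT, and was lower in KO in both pairs. The part of muscle transcripts in the Eno3 values was not tested. Gm33707, a processed pseudogene copied from Eno1, was the gene that edgeR called higher without a covariate, with 1424 and 1287 counts in KO and 0 in each WT library. In scaled values it had 62.7 and 59.5 CPM in KO. Whether some of its reads belong to Eno1 was not tested, so the overlap of Eno1 between genotypes is uncertain.

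Of the lactate genes, Ldha and Slc16a1 were higher in both KO libraries and Ldhb and Slc16a3 overlapped WT. Ldha, the form that favours lactate production, had 448 and 351 CPM in KO and 343 and 303 CPM in WT, with both KO libraries higher but KO replicate 2 only just above WT replicate 1 (log2 fold change 0.31 ± 0.16, and 0.13 without KO replicate 1). Ldhb, the form that favours pyruvate, had 437 and 472 CPM in KO and 447 and 476 CPM in WT, with overlapping genotypes and a log2 fold change of -0.02 ± 0.13. Slc16a1 (MCT1), a monocarboxylate carrier, had 188 and 175 CPM in KO and 132 and 153 CPM in WT, with both KO libraries higher (0.35 ± 0.12, edgeR adjusted p = 0.270). Slc16a3 (MCT4), the carrier of strongly glycolytic cells, was barely present, at 3.66 and 1.76 CPM in KO and 2.57 and 1.80 CPM in WT.

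**Figure D2:**
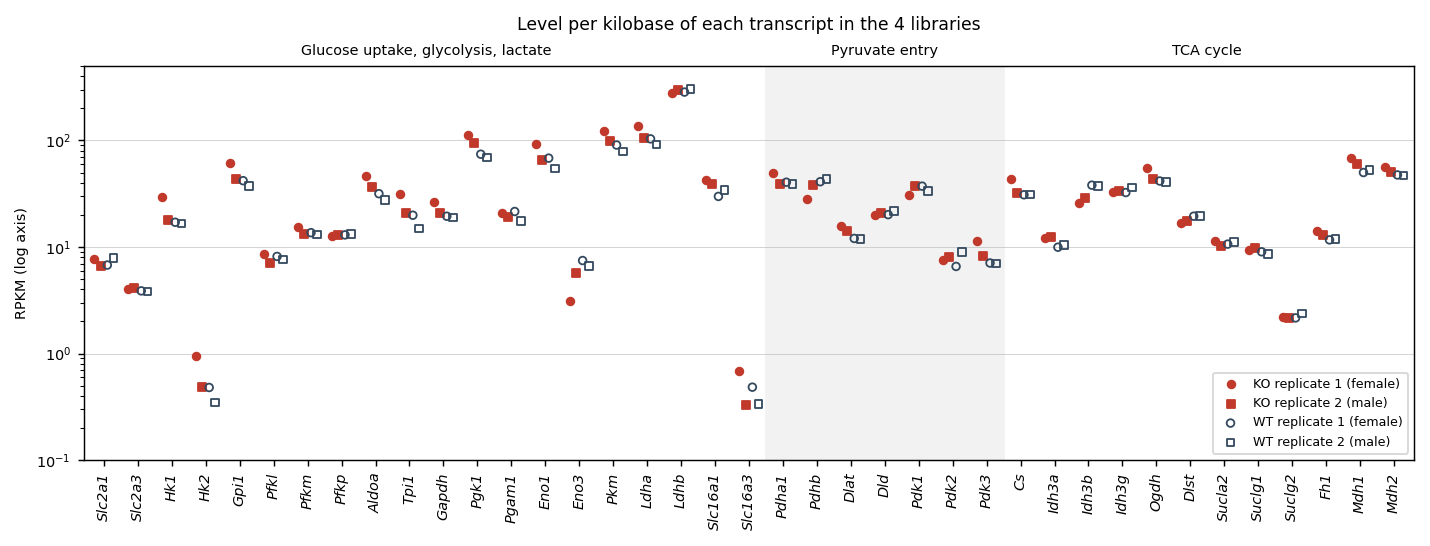
Level of each of the 39 genes per kilobase of deposited exon length (RPKM, log axis) in each library, with KO as filled red and WT as open blue symbols, circles for replicate 1 (female) and squares for replicate 2 (male). Ldhb is the highest gene at 278 to 303 RPKM in all 4 libraries, Hk2 and Slc16a3 are the lowest, and KO symbols lie above WT symbols for Pgk1, Tpi1 and Aldoa and below them for Idh3b and Eno3.

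Per kilobase, the lactate dehydrogenases and the lower glycolytic enzymes were the most abundant members. Ldhb averaged 289.5 RPKM in KO and 294 RPKM in WT. Ldha averaged 121 RPKM in KO and 97.5 RPKM in WT, Pkm 111 RPKM in KO and 84.8 RPKM in WT, and Pgk1 104 RPKM in KO and 71.8 RPKM in WT. Eno1 followed, then Mdh1 and Mdh2 of the TCA cycle. The least abundant were Suclg2, at 2.20 RPKM in KO and 2.27 RPKM in WT, and Hk2 and Slc16a3, each under 1 RPKM in every library. The order near the top was not firm, since Ldha and Pkm overlapped over the libraries, with Ldha at 135 and 106 RPKM and Pkm at 123 and 98.3 RPKM in the KO libraries.

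Pyruvate entry held no member that passed either edgeR fit (lowest edgeR adjusted p 0.272, and 0.167 with the sex term), and DESeq2 called 0; at an unadjusted p under 0.05, 2 were higher and 0 lower. The first enzyme of the pyruvate dehydrogenase complex, E1, is built of alpha subunits (Pdha1) and beta subunits (Pdhb). Pdha1 had 185 and 147 CPM in KO and 151 and 145 CPM in WT, with overlap between genotypes (log2 fold change 0.16 ± 0.14). Pdhb had 109 and 147 CPM in KO and 158 and 169 CPM in WT, with both KO libraries lower (-0.35 ± 0.16; edgeR adjusted p = 0.322). The Pdhb difference was larger in KO replicate 1, and without that library it was -0.15. Dlat, the E2 acetyltransferase, had 76.5 and 69.6 CPM in KO and 58.8 and 58.4 CPM in WT, with both KO libraries higher (0.32 ± 0.11, edgeR adjusted p = 0.272). Dld, the E3 dehydrogenase that other complexes share, overlapped (-0.03 ± 0.11).

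Of the genes of the kinases that switch the complex off, Pdk3 was higher in both KO libraries and the other two overlapped WT. Pdk1, the most abundant of them per kilobase, had 242 and 291 CPM in KO and 289.9 and 261 CPM in WT, with overlapping genotypes. Pdk2 had 23.7 and 25.4 CPM in KO and 20.8 and 28.6 CPM in WT, so both KO libraries lay between the WT libraries; its log2 fold change was -0.01 without a covariate and 0.01 with the sex term. Pdk3 had 28.9 and 21.1 CPM in KO and 18.1 and 17.9 CPM in WT, with both KO libraries higher and KO replicate 1 far above (0.47 ± 0.18, edgeR adjusted p = 0.288, and 0.23 on the log2 scale without that library).

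In the TCA cycle, Cs, Idh3a, Ogdh, Suclg1, Fh1, Mdh1 and Mdh2 were higher in both KO libraries, and Idh3b and Dlst were lower in both. DESeq2 called 0 of the 12 genes, as both edgeR fits did, and at an unadjusted p under 0.05 Mdh1 was higher and Idh3b lower. Cs, the citrate synthase that takes up acetyl-CoA, had 252 and 187 CPM in KO and 179 and 180 CPM in WT, and the difference was almost all in KO replicate 1 (log2 difference 0.50 for females and 0.06 for males). Mdh1, the cytosolic malate dehydrogenase of the malate shuttle, had 182 and 161 CPM in KO and 133 and 140.3 CPM in WT, with both KO libraries higher (0.33 ± 0.12, edgeR adjusted p = 0.274). Its mitochondrial counterpart Mdh2 had 201 and 180 CPM in KO and 169 and 167 CPM in WT (0.18 ± 0.11, and 0.10 without KO replicate 1).

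Isocitrate dehydrogenase 3 is the NAD-dependent enzyme of the cycle, with a catalytic alpha subunit (Idh3a) and the beta and gamma subunits Idh3b and Idh3g. Idh3b had 88.7 and 98.2 CPM in KO and 130.2 and 128 CPM in WT. Both KO libraries lay clearly below both WT libraries, and the replicates of each genotype were close. Idh3b was 1.38-fold higher in WT (log2 fold change -0.46 ± 0.11 for KO minus WT; edgeR adjusted p = 0.267, and 0.0853 with the sex term), with a DESeq2 adjusted p of 0.0552. It was called lower without KO replicate 1 (-0.39, edgeR adjusted p = 0.0461) and without KO replicate 2 (-0.54, adjusted p = 4.2e-04), and not without WT replicate 1 (-0.45, adjusted p = 0.947) or without WT replicate 2 (-0.48, adjusted p = 0.821), where the fold changes were of like size.

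The other subunits did not follow. Idh3a had 61.9 and 62.6 CPM in KO and 50.5 and 53.3 CPM in WT, with both KO libraries higher (0.26 ± 0.11, edgeR adjusted p = 0.299). Idh3g had 89.4 and 90.8 CPM in KO and 87.7 and 97.7 CPM in WT, with the KO libraries inside the WT range (-0.04 ± 0.11). Idh3a and Idh3b thus lay on different sides of WT in KO, as Dlat and Pdhb did, and neither edgeR fit called any of them. Of all genes tested, 27.9% had both KO libraries above both WT libraries and 28.4% had both below.

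The upstream bases of the lower subunit genes are given for comparison with Tpi1 and Pgk1, with the same letters in capitals. In Idh3b (chr2:130284548-130284701, 154 bases) neither string occurred, and in Pdhb (chr14:8173026-8173242, 217 bases) CACGT, the reverse strand of ACGTG, occurred at position -248. The Idh3b stretch had 37.0% G and C, against 62.7% in Pdhb, 62.8% in Pgk1 and 53.6% in Tpi1.
Idh3b: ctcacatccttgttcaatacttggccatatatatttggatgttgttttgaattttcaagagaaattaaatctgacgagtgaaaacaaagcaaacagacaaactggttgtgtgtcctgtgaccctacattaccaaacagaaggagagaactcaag
Pdhb: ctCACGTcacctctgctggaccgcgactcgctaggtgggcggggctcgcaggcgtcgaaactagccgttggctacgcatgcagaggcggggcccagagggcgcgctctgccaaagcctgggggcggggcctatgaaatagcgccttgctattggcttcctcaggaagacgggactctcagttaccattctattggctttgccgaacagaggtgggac

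The remaining TCA genes had log2 fold changes of -0.18 to 0.26. Ogdh, the first enzyme of the oxoglutarate dehydrogenase complex, had 304 and 237 CPM in KO and 227 and 224 CPM in WT (0.26 ± 0.15, and 0.08 without KO replicate 1), while Dlst, its succinyltransferase, had 162 and 167 CPM in KO and 186 CPM in each WT library (-0.18 ± 0.10). Both KO libraries were thus above WT for Ogdh and below WT for Dlst. The succinyl-CoA ligase genes lay near WT: Sucla2, its ATP-forming beta subunit, had a log2 fold change of -0.01 ± 0.12, Suclg2, its GTP-forming beta subunit, one of -0.05 ± 0.17, and Suclg1, the shared alpha subunit, one of 0.12 ± 0.11. Fh1, the fumarase, had 48.2 and 44.3 CPM in KO and 39.6 and 40.3 CPM in WT, with both KO libraries higher (0.21 ± 0.11).

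A share within a family does not depend on how libraries are scaled to each other, so the forms were also compared as shares of their family's reads per kilobase. Idh3b made up 36.4% and 38.4% of IDH3 in KO and 47.3% and 44.4% in WT, Idh3a 17.1% and 16.5% in KO and 12.4% and 12.5% in WT, and Idh3g 46.5% and 45.0% in KO and 40.3% and 43.1% in WT. For each subunit the genotypes did not overlap, and the mean difference (KO minus WT) was -8.42 percentage points for Idh3b, 4.39 for Idh3a and 4.03 for Idh3g. Shares of a family add up to the whole, so these differences are not independent of each other. The CPM of Idh3g itself overlapped between genotypes. In a comparison of 2 against 2 libraries the two-sided exact permutation p cannot go below 0.333, and it was 0.333 for each of these subunits. Pdhb made up 36.3% and 49.2% of the E1 subunits in KO and 50.3% and 52.9% in WT, lower in both KO libraries (exact permutation p = 0.333), mostly in replicate 1. The IDH3 and E1 families were compared after their values had been seen.

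Among the isozymes, Eno3 made up 3.22% and 7.91% of enolase in KO and 9.86% and 10.9% in WT, and Pdk3 made up 22.6% and 15.3% of the kinases in KO and 13.9% and 14.1% in WT. Both differences had no overlap between genotypes (exact permutation p = 0.333), with KO replicate 1 the farthest from WT. Ldha made up 32.7% and 26.1% of lactate dehydrogenase in KO and 26.7% and 23.2% in WT, with overlap. Pfkm made up 41.7% and 39.9% of phosphofructokinase in KO and 39.2% and 38.7% in WT, a mean difference of 1.88 percentage points. Hk1 (96.9% to 97.9%) and Slc16a1 (98.4% to 99.2%) dominated their families in all 4 libraries, and the glucose transporters and succinyl-CoA ligases also overlapped between genotypes. These shares rest on the deposited exon lengths; with the length of the longest coding transcript, an alternative chosen after seeing the data, the enolase difference of 4.79 percentage points became 2.19. Phosphofructokinase shares moved most: by transcript length Pfkm made up 23.9% and 22.0% in KO and 21.8% and 21.3% in WT, and Pfkp, at 55.2% and 60.1% in KO and 58.0% and 59.6% in WT, was then its main form.

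**Figure D3:**
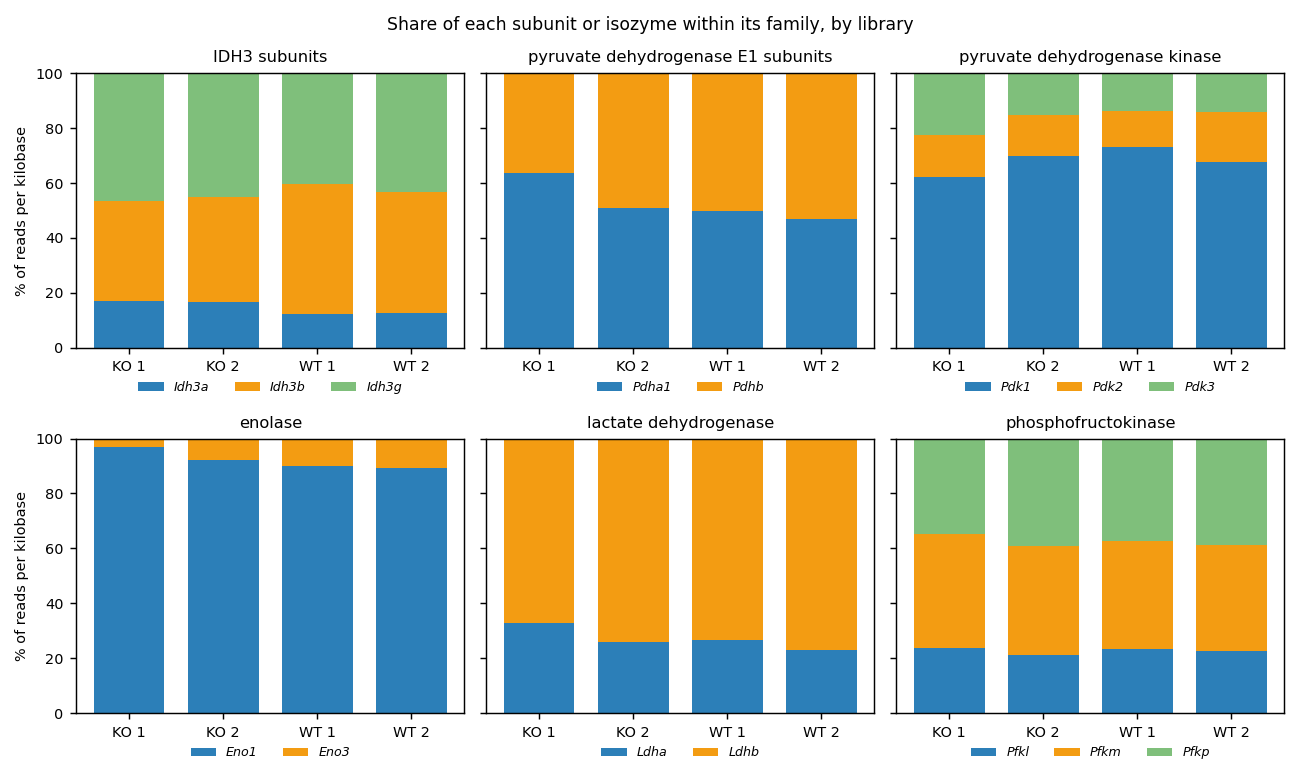
Stacked bars of each subunit's or isozyme's share of its family's reads per kilobase (percent, y axis) in KO replicates 1 and 2 and WT replicates 1 and 2 (x axis), without error bars since each bar is 1 library. The Idh3b band is narrower in both KO libraries (36.4% and 38.4%) than in WT (47.3% and 44.4%), while the phosphofructokinase bars look alike.

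Differences were mostly larger between the female libraries than between the male ones, for members as for all genes. The log2 difference KO minus WT was larger in size in the female pair for 30 of the 39 members (76.9%), against 73.3% of all genes tested, and the glycolysis median was 0.44 for females and 0.14 for males. The pyruvate entry median was 0.19 for females and 0.01 for males, and that of the TCA cycle 0.18 for females and 0.07 for males. Both pairs pointed the same way for 76.9% of members, against 72.2% of all genes, so this share was near the background. Of the members, 23 (59.0%) were higher in KO in both pairs and 7 (17.9%) lower in both, against 35.5% of all genes higher and 36.7% lower. Tpi1 differed by 0.67 for females and 0.49 for males, Pgk1 by 0.60 for females and 0.45 for males, Aldoa by 0.56 for females and 0.42 for males, and Idh3b by -0.55 for females and -0.38 for males. Hk1, in contrast, differed by 0.79 in the female pair and by 0.10 in the male pair. Each pair is 1 KO and 1 WT library, so the difference between the sexes was not tested.

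**Figure D4:**
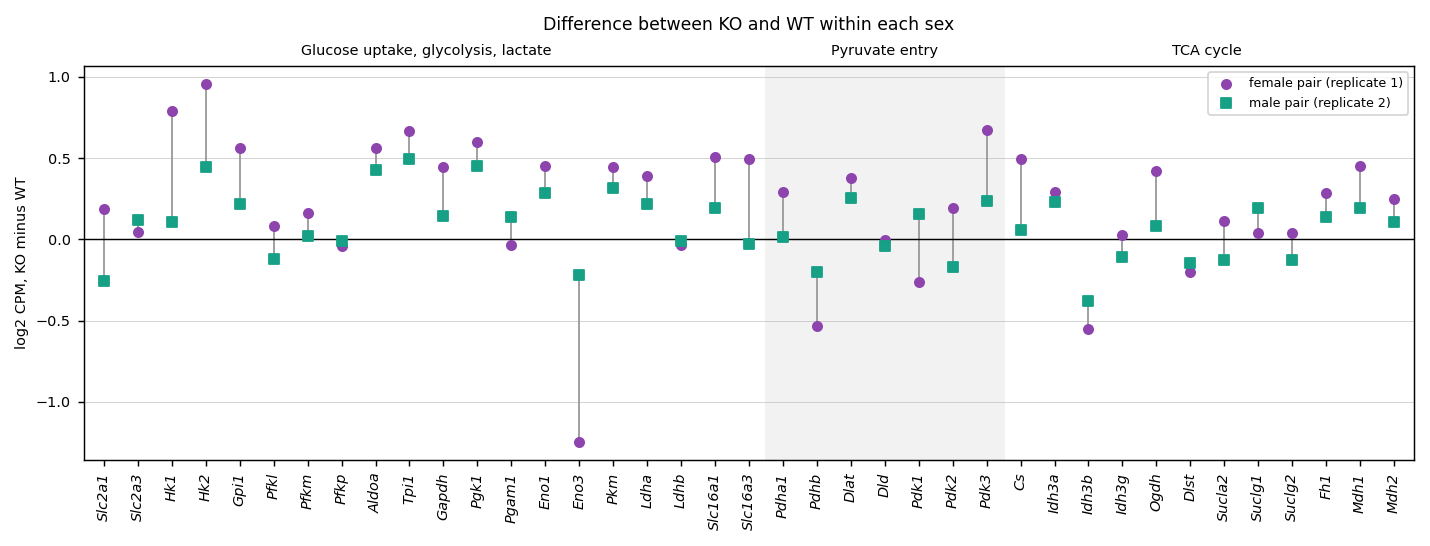
Difference in log2 CPM (KO minus WT, y axis) for each member in the female pair (purple circles) and the male pair (green squares), joined by a line, with 1 library per genotype in each pair. Tpi1, Pgk1, Aldoa and Idh3b lie on the same side of 0 and close together in both pairs, while Hk1, Eno3, Cs and Slc2a1 are far apart.

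KO replicate 1 held the highest of the 4 values for 23 of the 39 members (59.0%), against 36.3% of all genes tested, and for 14 of the 20 glycolysis genes. WT replicate 2 held the lowest value for 19 members (48.7%, against 20% of all genes), among them 13 of glycolysis. Calls depended on the library left out. Without KO replicate 2, edgeR called 18 members higher and 4 lower, where it called 15.8% of all genes higher and 16.5% lower, and the lone KO library was then assumed to vary like the WT libraries. Without KO replicate 1 it called Pgk1 higher and Idh3b lower (1.09% of all genes higher, 2.22% lower). With no filter on low counts, Hk1, Aldoa, Tpi1 and Pgk1 were called higher and Idh3b lower, where 2.41% of 26019 genes were called higher and 3.22% lower.

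Several of these genes have near-identical processed copies, and fragments that fitted more than 1 place were left out of the deposited counts. Of the 50-base stretches of the longest coding transcript, 82.5% of Gapdh, 72.2% of Eno1, 68.0% of Pgk1, 41.5% of Pgam1, 34.4% of Pkm and 30.3% of Pdhb also occurred in other genes. Lower shares were found for Ldhb (27.0%), Suclg2 (21.8%), Gpi1 (19.3%), Ldha (16.6%) and Aldoa (13.5%). Tpi1 had 7.51% and Idh3b none. Counts at the copies of Pgk1 were few, at 29 and 20 in KO and 14 and 12 in WT, while those at the copies of Eno1 came to 1983 and 1680 in KO and 384 and 341 in WT, mostly at Gm33707 in KO. Genes that share stretches with Gapdh held 3986 and 3533 counts in KO and 4733 and 5147 in WT. Gapdh itself held fewer, at 2480 and 1868 in KO and 1907 and 2221 in WT. Genes that share stretches with Pkm held 613 and 576 counts in KO and 774 and 891 in WT. Both sums were larger in WT, unlike the scaled levels of Gapdh and Pkm. Exons of Pdha1 (16.1% of its length), Pkm (15.3%) and Pfkm (10.7%) overlap other annotated genes, where unstranded reads cannot be assigned. Levels of these genes are uncertain to that extent.

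Of 96 further genes of these and neighbouring pathways, 0 were called by either edgeR fit or by DESeq2, and at an unadjusted p under 0.05 edgeR had 8 higher (8.33%) and 4 lower (4.17%), against 8.14% and 8.69% of all genes. Of the other glycolytic genes, 19 of 25 were tested, with a median log2 fold change of -0.23. Both KO libraries lay above both WT libraries for 3 of these 19 and below for 7, against 27.9% and 28.4% of all genes. The like counts were 7 and 3 for the 19 other TCA cycle genes, and 3 and 2 for the 10 other pyruvate entry genes. Bsg, the chaperone of monocarboxylate carriers, was the most abundant other glycolytic gene per kilobase. It had 197 and 154 CPM in KO and 138 and 139 CPM in WT, and was followed by Minpp1 (0.13 ± 0.12). The 19 tested genes that complete the TCA cycle list had a median of 0.13, with the succinate dehydrogenase subunits Sdha (307 and 259 CPM in KO, 233 and 225 CPM in WT) and Sdhd (0.16 ± 0.12) on top per kilobase. Of the other pyruvate entry genes, 10 of 12 were tested, with a median of 0.06; Pdpr, a regulatory subunit of the pyruvate dehydrogenase phosphatase, had a log2 fold change of 0.13 and Lias, the lipoic acid synthase, one of 0.06.

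The pentose phosphate pathway, which branches off before phosphofructokinase, was tested with all 8 genes of its list. Both KO libraries lay above both WT libraries for 6 of the 8, against 27.9% of all genes, with a median log2 fold change of 0.24. Taldo1, the transaldolase, had 169.9 and 189.6 CPM in KO and 167 and 166 CPM in WT, and H6pd, of the endoplasmic reticulum, 249 and 211 CPM in KO and 215 and 182 CPM in WT, with overlap. Tkt, the transketolase, had the largest difference (0.64 ± 0.20, edgeR adjusted p = 0.267, and 0.0672 with the sex term) and is named after its value was seen. Gluconeogenic genes, 6 of 7 tested, had a median of -0.29, with Slc37a4 and Fbp1 the most abundant per kilobase, at log2 fold changes of -0.34 ± 0.22 and -0.41 ± 0.66; Fbp1 and Pck1 are liver genes.

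Regulators of these pathways and other targets of hypoxia-inducible factors were tested beside them. Among 19 of 21 regulators the median was -0.01; Txnip, an inhibitor of glucose uptake, had 429.9 and 435 CPM in KO and 591 and 543 CPM in WT, both KO libraries lower (-0.39 ± 0.13, edgeR adjusted p = 0.267), and Max, the partner of Myc, had a log2 fold change of -0.17 ± 0.10. Myc itself, named after its value was seen, had 13.0 and 14.7 CPM in KO and 10.2 and 9.83 CPM in WT, both KO libraries higher (0.46 ± 0.17, edgeR adjusted p = 0.275). Among 15 of 17 hypoxia targets outside the members the median was -0.07, with Ddit4 at -0.07 ± 0.20 and the mitophagy receptor Bnip3l at 0.49 ± 0.16 (edgeR adjusted p = 0.267). The 15 went both ways, with log2 fold changes from -1.07 to 0.49. Both KO libraries lay above both WT libraries for 4 of them and below for 5, against 27.9% and 28.4% of all genes. At an unadjusted edgeR p under 0.05, 2 were higher, Bnip3l among them, and 2 lower, against 8.14% and 8.69% of all genes. Both lists had medians near that of all genes.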

How the data were processed

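RNA was poly-T selected from sorted DP thymocytes and libraries were prepared with an unstranded kit, per the labels' protocols. The submitters' processing notes name the build GRCm38 and DESeq2, HISAT2, FastQC, featureCounts 1.6.4 and Trim Galore 0.5.0, whereas the file header names featureCounts 1.6.3. The authors deposited raw fragment counts per gene for paired fragments over Ensembl 98 exons, without strand and without multi-mapped or multi-gene fragments, per the file headers. The deposited gene length served for RPKM and shares. Symbols came from GENCODE M21 on GRCm38 and matched 98.2% of the 56239 gene IDs. The members and gene lists were chosen with earlier results of these data known.

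Counts were analysed in R 4.3.3 with edgeR 4.0.16: filterByExpr (15070 genes), TMM factors (0.919 to 1.04) and the quasi-likelihood F test of KO against WT. P-values were adjusted by Benjamini-Hochberg over all genes, with a threshold of 0.05. The fit without a covariate left 2 residual degrees of freedom; the sex-term fit adds the replicate number. Pair differences use log2 CPM with a prior count of 2. DESeq2 1.42.0, other scalings, no filter and leaving out each library were alternatives. The edgeR steps were tested on simulated counts. Totals ran from 21068760 to 27369874 counts a library. Exact (Clopper-Pearson) 95% intervals of shares cover counting error alone, because PCR copies are not separate molecules.

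Given with all values were members called with or without the sex term, the 4 with the largest change in each group among those whose genotypes did not overlap at a mean of at least 5 CPM (3 qualified in pyruvate entry), the 2 highest per kilobase, and isozymes; of other lists, genes called or else the 2 most highly expressed per kilobase. Other members are named to account for all 39, and Gm33707, Chaf1b, Pck1, Tkt and Myc outside the rule.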

Additional observations from a re-analysis of the deposited data

Results flagged for a closer look

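The female and male pairs pointed in opposite directions for 9 of the 39 members (23.1%), against 27.8% of all genes tested. For 3 of these members both differences were larger than counting error. That bound leaves out the spread between libraries, and the share of all genes that pass it was not computed. On the log2 scale (KO minus WT), Slc2a1 differed by 0.19 between the female libraries and by -0.26 between the male libraries. Pdk1 differed by -0.26 between the female libraries and by 0.16 between the male ones. Pdk2 differed by 0.19 between the female libraries and by -0.17 between the male ones. Each value compares 1 KO with 1 WT library, and the difference between the sexes was not tested.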

How the results depend on the processing

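With 2 libraries a genotype, the number of calls depended on the processing, and the cause was not tested. Over all genes the count of higher calls, 1 without a covariate, was 627 with no filter on low counts, 177 with DESeq2, 152 with the replicate block (the sex term), 26 with the block and library totals, 134 with the block and RLE factors, 556 with the block and no filter, and 1 to 2518 with a library left out. Lower calls, 0 without a covariate, were 838, 285, 331, 119, 282 and 965 under the same settings in that order, and 0 to 2630 with a library left out. For glycolysis, higher calls were 4 with no filter, 1 with DESeq2, with the block and with the block and RLE factors, 3 with the block and no filter, and 0 to 11 with a library left out; lower calls were 1 with the block and no filter and 0 to 1 with a library left out. For pyruvate entry, higher calls ran from 0 to 3 and lower calls from 0 to 1 with a library left out, and the median log2 fold change from -0.06 to 0.13. With a library left out the glycolysis median ran from 0.11 to 0.46. For the TCA cycle, lower calls were 1 with no filter and 1 with the block and no filter, and 0 to 2 with a library left out; higher calls ran from 0 to 4, and its median was 0.07 with library totals and 0.06 with the block and library totals. The highest counts of calls came without KO replicate 2.

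Signs turned for members near 0: Slc2a3 to -0.0019 with the block and library totals, Pgam1 to -0.04 with library totals and -0.03 with the block as well, and Pdk2 to 0.0097, 0.02 and 0.0052 with the block alone, with RLE factors and with no filter. With a library left out, log2 fold changes ran from -0.15 to 0.08 for Slc2a1, -0.17 to 0.12 for Pfkl, -0.0017 to 0.18 for Pfkm, -0.05 to 0.0012 for Pfkp, -0.09 to 0.20 for Pgam1, -0.08 to 0.04 for Ldhb, -0.30 to 0.74 for Slc16a3, -0.01 to 0.32 for Pdha1, -0.08 to 0.03 for Dld, -0.19 to 0.09 for Pdk1, -0.22 to 0.24 for Pdk2, -0.12 to 0.04 for Idh3g, -0.10 to 0.08 for Sucla2 and -0.11 to 0.02 for Suclg2. Scaling by RLE factors moved 0 of 39 members across the threshold.

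Replicate numbers went together between genotypes: over 15070 genes, replicate 1 minus replicate 2 in KO correlated with the same difference in WT at r = 0.472, across genes and from 2 pairs only, so the numbers mark sex but are not shown to pair mice. Slc16a3 (38 to 83 counts) and Hk2 (59 to 128 counts) had the largest standard errors among the members, 0.44 and 0.40.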
